A study of Saccharomyces cerevisiae with 72 samples.

Results

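Replication of chromosome VII of budding yeast (Saccharomyces cerevisiae) was described from every 1-kb bin of that chromosome in 44 tables of S-phase to G1 DNA ratios. The bins were chosen by their chromosome name alone, and 1029 of the 11277 bins listed in all 44 tables lay on VII. The first one began at base 9001 and the last one ended at base 1084000 of the sacCer3 build. The study released cells from a G1 arrest and sampled them at 15, 20, 25, 30, 35, 40, 45, 50, 60, 70 and 80 minutes, with 1 library per strain and minute. The comparison asks how an Sld3 allele and the loss of the phosphatase subunit Pph3 change the order and pace of replication.

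The 4 strains were all W303 MATa with swe1delta::TRP1, and all carried CSE4-HA6 at leu2 in place of CSE4, the CDC55-AID fusion and osTir1 under the GPD1 promoter at his3. Tir1 is the plant protein that targets degron (AID) fusions for destruction when auxin (IAA) is present. Strain D combined PPH3-AID with sld3-R(2A)-13myc. Strain C had PPH3-AID with SLD3-13myc. Strain B had sld3-R(2A)-13myc and strain A SLD3-13myc, both with no listed change of PPH3. Cells were held with 5 µg/ml alpha factor, given 1 mM IAA with 30 minutes at 37 °C, and released into medium that still held IAA. Cdc55, which directs the phosphatase PP2A to its targets, was therefore degron-tagged in A as well, and no strain here stands for an unmodified cell.

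Each chromosome of yeast is copied from many origins, which are loaded with the Mcm2-7 helicase in G1 and fire at different times in S phase. Sld3 joins the helicase at an origin and, once phosphorylated by the S-phase kinases, helps to turn it into a pair of moving forks. Origins compete for such limiting factors, so early and late origins can be told apart along a chromosome. On a timing profile an early origin appears as a peak and the place where forks from neighbouring origins meet as a valley. Centromeres of yeast are known for early replication and chromosome ends for late replication.

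The tables hold no read counts, and the sequencing depth is therefore unknown. The noise of a single bin, taken from the differences between neighbouring bins, was between 0.0425 and 0.0688 of the library median over the 44 libraries. Trep, the replication time of a bin, was read where the 5-kb mean of its ratio, forced never to fall with time, reached 1.5. On VII the noise of Trep was 1.03 minutes in D, 0.74 in C, 0.64 in B and 0.64 in A, and that of the D minus A difference was 1.21 minutes. It was taken from Trep of single bins without the 5-kb mean and divided by the square root of 5. Neighbouring 5-kb values can differ by more than this, as some of C do below. No difference between strains has a replicate check, so values are given with the spread over bins and with their range when each of the 11 minutes was left out in turn. Trep is read between the minutes next to the crossing, so leaving out a distant minute often cannot change it. Such a range is therefore narrow by construction and does not stand in for a replicate. The deposited ratios had been multiplied by a scale factor for each library, and the sizes of all delays depend on it. Therefore values with 1 factor for all strains at each minute (common scale factors) or values in which the factor cancels stand beside the main ones. Common scale factors take out most or all of any delay of the whole genome, real or not, since the deposited factors follow the library medians closely. Inside the covered stretch 46 bins of VII were not listed in all tables, 41 of them in 6 stretches of 3 kb or more, and 5 of the 19 peaks bordered such a stretch.

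Taken over its length, chromosome VII replicated latest in D and earliest in A. The median Trep over 1027 bins was 44.5 minutes in D, 36.3 in C, 39.6 in B and 32.8 in A, against 44.03 in D, 36.35 in C, 39.3 in B and 32.75 in A for the other 15 chromosomes. The median delay was 10.72 minutes in D against A (quartiles 7.88 and 15.35, range with a minute left out 10.16 to 11.11). It was 6.26 minutes in B against A (6.02 to 6.35) and 3.46 minutes in C against A (3.24 to 3.83). D was later than A in 1027 of 1027 bins, against 11258 of 11260 bins of the genome, which rounds to 100%. C was later than A in 1021 bins of VII and earlier in 6, against 98.9% later over the genome. With common scale factors the median delay of D on VII was 4.12 minutes. It then differed from that of the other chromosomes by -0.37 minutes, so VII was not set apart from them. These factors bring the strains to nearly the same overall level at each minute. What remained therefore cannot measure a delay of the whole genome.

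On the deposited scale, each change went with a slightly larger delay on VII when the other was present. With sld3-R(2A) VII was later by 7.32 minutes where Pph3 was depleted (D minus C) and by 6.26 minutes where it was present (B minus A). With Pph3 depleted it was later by 4.50 minutes on sld3-R(2A) (D minus B) and by 3.46 minutes on SLD3 (C minus A). The median excess of D over the sum of both single delays was 0.99 minutes (0.71 to 1.16 with a minute left out), while its noise for 1 bin was 1.56 minutes. With common scale factors the excess was 0.15 minutes and the order of both comparisons turned. The delay with sld3-R(2A) was then 2.22 minutes for D minus C and 2.36 for B minus A, and the delay with Pph3 depleted was 1.84 minutes for D minus B and 2.04 for C minus A. On the deposited scale the excess was above 0 in 694 of 1027 bins of VII, a share of 67.6%, against 69.2% over the genome.

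Replication was also more spread out in time along VII in D. The span between the 5th and the 95th percentile of Trep was 27.8 minutes in D, 20.5 in C, 19.1 in B and 17.3 in A. The delay itself was uneven, with a standard deviation over the bins of VII of 5.18 minutes for D minus A. That placed VII at rank 14 of 16 chromosomes counted from the most even, while its median delay ranked 8. The order of the bins was kept better in the single changes, with a Pearson correlation of Trep across 1027 bins of 0.788 between D and A, 0.922 between C and A and 0.916 between B and A. These bins are neighbours that share forks and libraries, so the correlations only describe the profiles.

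**Figure D1:**
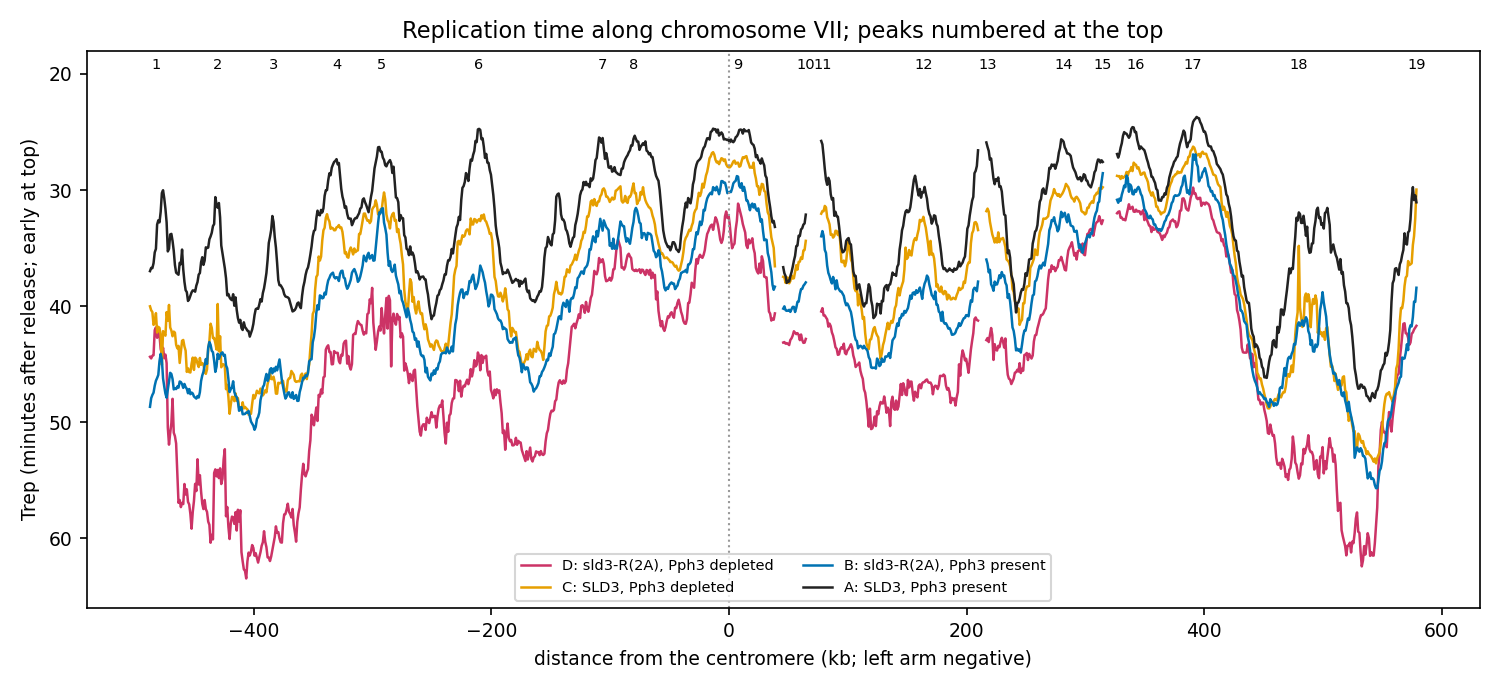
Trep in minutes (vertical axis, early at the top) against distance from the centromere in kb for D, C, B and A, with the 19 peaks numbered at the top and gaps where bins are not listed. The D profile lies below that of A at all bins. D is close to A around peaks 15 to 17, closest at a position between peaks 17 and 18, and farthest from A around peaks 2, 3 and 18.

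In 100-kb windows counted from the left end, the delay of D was greatest at the left end and smallest in window 9, from 800001 to 900000. Window 1 had a median Trep of 56.8 minutes in D, 44.9 in C, 47.0 in B and 36.9 in A, a delay of 18.80 minutes in D against A (16.04 to 19.01 with a minute left out). Window 9 was the earliest in every strain, with 32.4 minutes in D, 28.8 in C, 30.4 in B and 26.5 in A, and its delay was 5.38 minutes (4.18 to 5.91). Windows 2, 3 and 4 were delayed by 16.26, 13.22 and 13.32 minutes, windows 5 to 8 by 8.70 to 11.02 minutes, window 10 by 6.12 and window 11 by 12.33 minutes. The single changes also had their largest and smallest delays in these windows. B minus A was 9.72 minutes in window 1 and 3.86 in window 9, and C minus A was 7.58 and 1.94 minutes there.

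Which windows were delayed most and least depended on the scale. With common scale factors the delay was largest, at 7.32 minutes, in window 2 and smallest, at 1.77 minutes, in window 11. Window 1 was then at 3.02 minutes and window 9 at 3.01, above windows 6, 8 and 10 as well, which had 2.65, 2.77 and 2.63 minutes. Reading each bin at the midpoint between its own lowest and highest ratio in place of 1.5, with the deposited factors, gave 18.5 minutes in window 1 and 6.11 in window 9. The ratios of these windows already differed early in the time course. At 20 minutes the median ratio of window 1 was 1.093 ± 0.057 (SD over bins) in D, 1.173 ± 0.064 in C, 1.097 ± 0.043 in B and 1.196 ± 0.064 in A. Window 9 was lower in every strain, at 0.937 ± 0.054 in D, 0.891 ± 0.074 in C, 1.013 ± 0.071 in B and 0.944 ± 0.090 in A. The part of this offset in the delays was not tested.

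Windows 1 and 9 were also the extremes of D by a measure of earliness without any scale factor. Relative timing integrates each ratio, set against its library median, over the 11 minutes and is given in minutes above the genome median, so that earlier bins have higher values. Window 9 stood at 7.09 minutes in D, 4.71 in C, 5.98 in B and 3.23 in A, so it was further ahead of the genome in D than in A. Window 1 stood at -3.92 minutes in D, -2.39 in C, -3.62 in B and -1.76 in A, further behind in D. Over all 11 windows the standard deviation of relative timing was 3.55 minutes in D, 2.69 in C, 3.22 in B and 2.10 in A. Over single bins of VII it was 4.75 minutes in D and 4.30 in A, but 5.30 in D and 5.45 in A when the ratios were taken over the 15-minute library of the same strain, so the wider spread of D over bins by this measure depends on the denominator.

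The ratios behind these values show when each window was copied. At 45 minutes window 1 had a median ratio of 1.410 ± 0.115 in D, 1.477 ± 0.170 in C, 1.425 ± 0.110 in B and 1.789 ± 0.124 in A (SD over bins). Window 9 had already reached 2.036 ± 0.123 in D, 2.162 ± 0.154 in C, 2.068 ± 0.106 in B and 2.043 ± 0.135 in A at that minute. At 60 minutes window 1 was at 1.563 ± 0.123 in D, 1.931 ± 0.117 in C, 1.811 ± 0.090 in B and 1.970 ± 0.118 in A. D thus had the lowest ratio of window 1 at both minutes, and it stood at 1.834 ± 0.109 at 70 minutes, against 1.998 ± 0.103 in A.

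**Figure D2:**
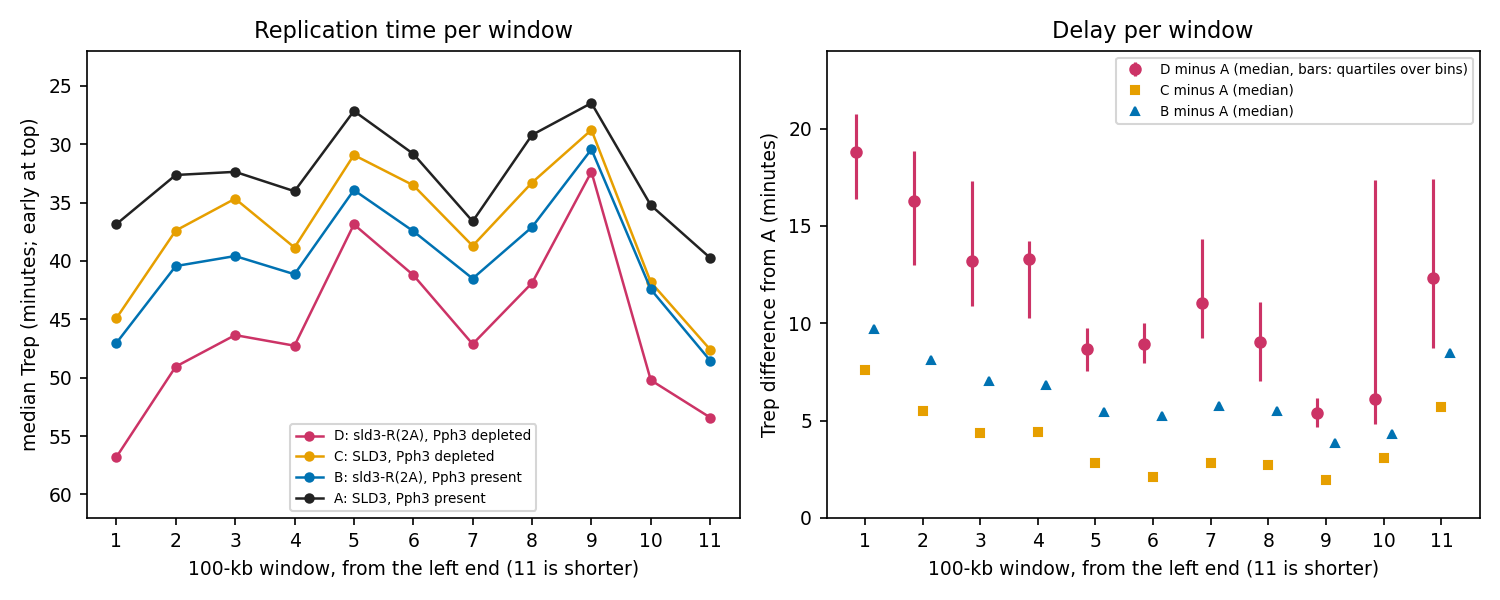
Left, median Trep in minutes (early at the top) for each of 11 windows from the left end in D, C, B and A; right, the median difference from A in minutes for D, C and B, with bars for the quartiles of D minus A over the bins of a window. The D minus A points run from 18.80 minutes in window 1 to 5.38 in window 9, and the wide bar of window 10 spans 4.83 to 17.34 minutes.

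The centromere of VII lies between YGL001C and YGR001C, in the interval from 496503 to 497132. The 20 bins within 10 kb of it had a median Trep of 33.2 minutes in D, 27.7 in C, 29.7 in B and 25.5 in A. Their delay in D against A was 7.91 minutes (quartiles 6.73 and 8.88), or 4.72 minutes with common scale factors. The left arm was delayed more than the right, by 13.55 against 8.90 minutes, although both arms had nearly the same median Trep in A, 33.0 minutes on the left and 32.6 on the right. In D it was 46.3 minutes on the left and 43.6 on the right. The arm difference of 4.65 minutes ranged from 4.53 to 4.75 with a minute left out and was 2.21 minutes with common scale factors.

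Both ends of VII differed from its interior in how D and B compared. In the first 30 kb the median Trep was 46.5 minutes in D, 42.2 in C, 46.8 in B and 35.2 in A. In the last 30 kb it was 42.9 minutes in D, 38.9 in C, 44.5 in B and 34.9 in A. D and B therefore differed little at the ends, by 0.65 minutes on the left and -0.20 on the right, while the interior was 4.66 minutes later in D than in B. The excess of D over the sum of the single delays was -6.79 minutes at the left end and -6.47 at the right end, against 1.11 minutes in the interior. Only 30 and 23 bins stood behind these end values, and the right one held an unlisted stretch from 1076001 to 1083000 over MAL12, PAU12 and COS6. The end values were not recomputed with another scale or crossing. At VII:14001-15000, within the left end, D minus B was -4.59 minutes. It was 6.14 minutes there with the midpoint crossing and -15.77 with common scale factors, so how D and B compare at that bin depends on the reading.

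Peaks were called on the ratio profile averaged over all strains, which gave 19 peaks with 18 valleys between them. They are numbered from the left end, and their bins start at 14, 66, 113, 166, 204, 286, 390, 416, 504, 561, 575, 660, 714, 778, 811, 839, 887, 976 and 1075 kb. Of these, 17 stood more than 5 times the noise above their surroundings, and only peaks 1 and 8 did not. Peaks called in 1 strain at a time numbered 15 in D, 19 in C, 20 in B and 19 in A. Of the 19 shared positions, 7 had a peak of D alone within 5 kb, against 15 for C, 16 for B and 11 for A. These peaks were called on libraries from 25 to 50 minutes, and there the D profile kept fewer maxima at the shared positions. With a stricter prominence of 5 times the noise only 9 peaks of D were left. The interval ended before the Trep of D at peaks 2, 3 and 18, which was 54.1, 60.5 and 54.9 minutes. The latest peak of A had 35.1 minutes. The part of this interval in the lower counts of D was not tested. With the library of widest ratio distribution in each strain, peaks numbered 13 in D, 19 in C, 19 in B and 17 in A. Shared positions were not recounted there.

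The delay of D at the peaks ranged from 5.04 minutes at peak 15 to 27.76 minutes at peak 3, with a median of 11.33. At the valleys it ranged from 3.06 minutes at the valley before peak 17 to 21.53 minutes at the valley before peak 3, with a median of 8.92. Peaks were later than in A at 19 of 19 positions in D, 18 in C and 19 in B. B was later than C at 16 of 19 peaks and 17 of 18 valleys. The delay of D at a peak went with how late the peak was in B and C (Pearson r 0.694, Spearman rho 0.718 over 19 peaks on the same libraries). It went little with the distance from the centromere (r 0.190, rho 0.107). At the 18 valleys the relation of the delay of D to lateness in B and C was weaker (r 0.429, rho 0.416).

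**Figure D3:**
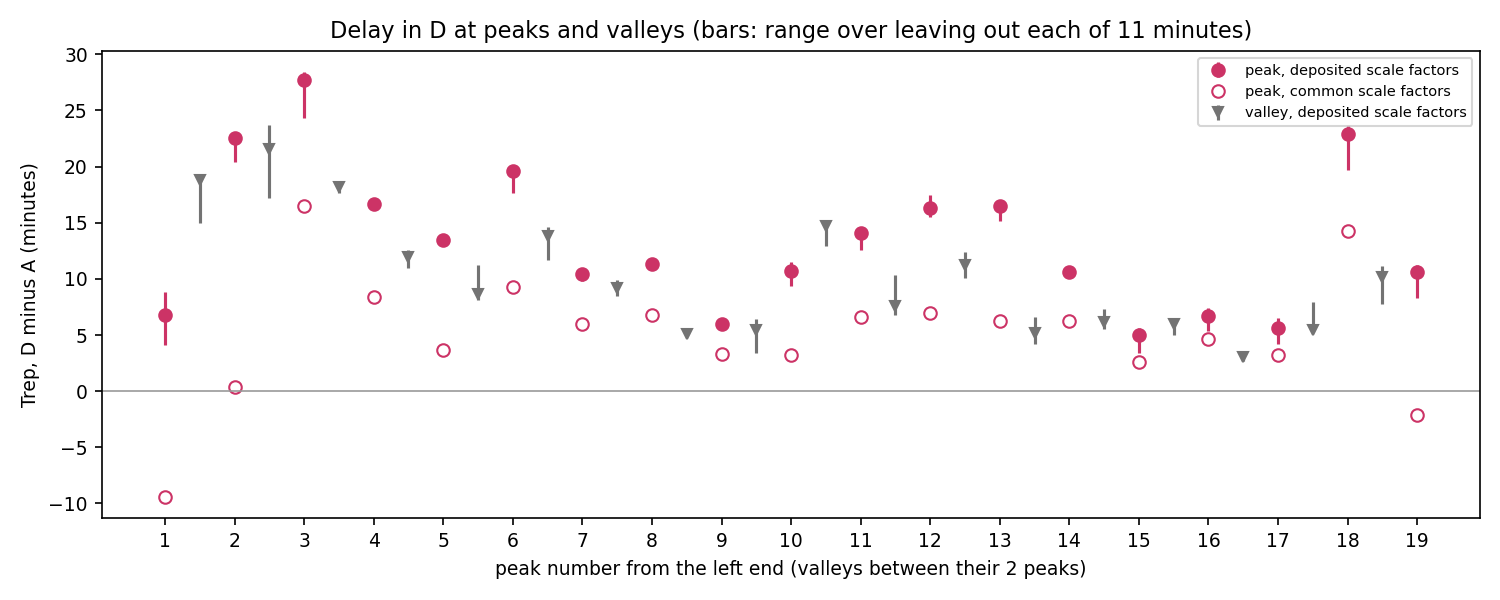
Difference in Trep between D and A in minutes at the 19 numbered peaks (circles) and the 18 valleys between them (triangles); bars give the range when each of 11 minutes was left out, and open circles the peaks with common scale factors. Filled circles range from 5.04 minutes at peak 15 to 27.76 at peak 3, and 2 of the open circles, at peaks 1 and 19, fall below 0.

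The 3 earliest peaks of VII by the mean Trep of the 4 strains were among the least delayed on the deposited scale. Peak 17, in XKS1, the gene for xylulokinase, was the earliest in every strain, with a Trep of 29.8 minutes in D, 26.3 in C, 26.9 in B and 24.1 in A. Its ratio at 30 minutes was 1.506 ± 0.046 in D, 1.805 ± 0.057 in C, 1.591 ± 0.069 in B and 1.941 ± 0.086 in A (SD over 5 bins). Peak 9, next to the centromere in PEX31 and TFG2, a peroxisomal gene and a gene for a subunit of the transcription factor TFIIF, was second by that mean, with 31.2 minutes in D, 27.6 in C, 28.9 in B and 25.2 in A. It was 2nd in D and C, 3rd in B and 4th in A. Peak 16, in PSD2, a phosphatidylserine decarboxylase, had 31.7 minutes in D, 27.8 in C, 30.2 in B and 25.0 in A. The delays in D against A were 5.65, 5.99 and 6.69 minutes at these 3 peaks.

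Within single libraries, where the scale factor cancels, these peaks stood near the top in all 4 strains. In the libraries with the widest ratio distribution (45 minutes in D, 35 in C, 40 in B, 35 in A), peak 9 was above 92.8% of the bins of VII in D, 91.8% in C, 92.9% in B and 92.5% in A. Peak 17 was above 99.7% in D, 99.7% in C, 97.8% in B and 97.9% in A. Peak 16 ranged from 91.7% in B to 97.6% in C, with D and A between. Such values near the top leave little room for a difference. Relative timing, which has no scale factor either, was less alike. At peak 9 it was 9.61 minutes in D, 4.99 in C, 7.60 in B and 5.00 in A, and at peak 17 it was 11.49 in D, 8.49 in C, 8.71 in B and 6.05 in A. Both peaks were thus further ahead of the genome median in D than in A. The slope down from peak 17 to the valley 63 kb to its right differed little between strains. The Trep gap over that flank was 21.2 minutes in D, 22.6 in C, 21.5 in B and 21.4 in A, which is 2.98 kb per minute in D, 2.79 in C, 2.93 in B and 2.95 in A. Against A, D was later by 5.65 minutes at the peak and by 5.42 minutes at the valley. Between them the delay was not even, and it was 1.38 minutes at VII:939001-940000. Over the 27 kb to the valley on the left of peak 17 the gap was 4.20 minutes in D, 5.84 in C, 6.60 in B and 6.79 in A. Other flanks of VII differed more between strains. Over the 14 flanks of 30 kb or more, the median was 4.72 kb per minute in D, 3.72 in C, 4.33 in B and 3.24 in A. In D only 13 of these flanks had a value, as a gap of at least 2 minutes was needed. A slope of this kind describes the profile and is no measured fork speed.

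Peak 6, at VII:286001-287000 in a bin that overlaps no gene of the annotation, was among the earliest positions in A and among the later ones in D. It was picked after its values were seen. Its Trep was 44.3 minutes in D, 32.5 in C, 37.4 in B and 24.7 in A, which made it 15th of 19 peaks in D, 13th in C, 11th in B and 2nd in A. At 25 minutes its ratio was 1.160 ± 0.069 in D, 1.228 ± 0.052 in C, 1.201 ± 0.058 in B and 1.516 ± 0.132 in A (SD over 5 bins). At 45 minutes it was 1.509 ± 0.061 in D, 1.840 ± 0.108 in C, 1.809 ± 0.062 in B and 2.090 ± 0.192 in A. A was the highest strain at both minutes. C and B were close together at both, while D was close to them at 25 minutes and below them at 45. Between these minutes C and B were apart. At 35 minutes the ratio was 1.343 ± 0.068 in D, 1.646 ± 0.076 in C, 1.451 ± 0.075 in B and 1.886 ± 0.174 in A.

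Set against peak 9 of the same strain, peak 6 was later by 13.14 minutes in D, 4.87 in C and 8.52 in B, and differed by -0.45 minutes in A. The noise of such a difference was 1.46 minutes in D, 1.05 in C, 0.91 in B and 0.90 in A. Peak 6 stood above 48.9% of the bins of VII in D, 71.3% in C, 54.7% in B and 76.2% in A in the libraries of largest spread. With common scale factors its delay in D against A was 9.26 minutes, and that of peak 9 was 3.28 minutes. More widely, 7 peaks had a Trep below 26 minutes in A, all between 24.1 and 25.8 minutes. Their Trep ran from 29.8 to 44.3 minutes in D, from 26.3 to 32.5 in C and from 26.9 to 37.4 in B. They were chosen on A, so their narrow range in A is fixed by the choice.

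**Figure D4:**
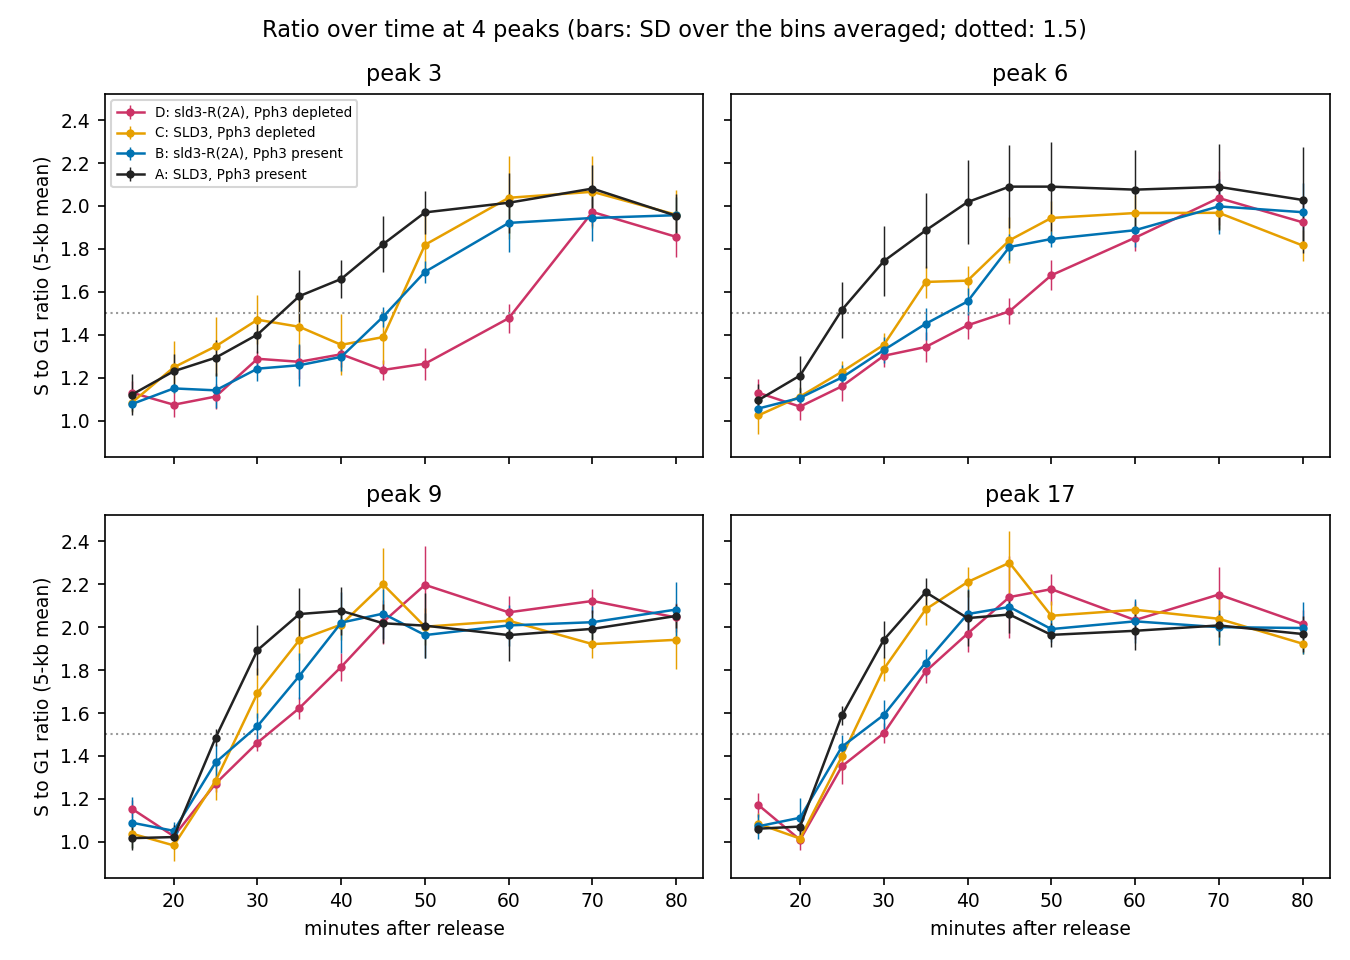
Ratio of S-phase to G1 DNA (5-kb mean, bars SD over the bins averaged, dotted line 1.5) against minutes after release at peaks 3, 6, 9 and 17 in D, C, B and A. At peak 3 D is still at 1.265 at 50 minutes, and at peak 6 the ratios at 25 minutes are 1.160 in D and 1.516 in A, while at peaks 9 and 17 all strains cross 1.5 between 24.1 and 31.2 minutes.

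By the mean Trep of the 4 strains the 3 latest peaks were peaks 1 to 3 at the left end. In D alone peak 1 was 11th of 19 and peak 18 the second latest. Peaks 2 and 3 were among those delayed most. Peak 3, in KEX1, a protease gene that serves in the maturation of alpha factor, had a Trep of 60.5 minutes in D, 46.1 in C, 45.4 in B and 32.8 in A. Its ratio at 50 minutes was 1.265 ± 0.075 in D, 1.819 ± 0.142 in C, 1.693 ± 0.051 in B and 1.970 ± 0.099 in A (SD over 5 bins). D passed 1.5 after 60 minutes, when its ratio was 1.477 ± 0.068. The delay of 27.76 minutes in D ranged from 24.29 to 28.43 with a minute left out and was 16.48 minutes with common scale factors, the largest of the 19 peaks on both scales.

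Peak 3 was also no peak in D. Its lead over the mean of both flanking valleys was 0.14 minutes in D, 1.56 in C, 3.29 in B and 8.05 in A, where the noise of Trep in D was 1.03 minutes. In the libraries of largest spread it stood above 1.9% of the bins of VII in D, 49.8% in C, 20.4% in B and 47.7% in A. In C the ratio was not monotone there. It was 1.470 at 30 minutes, 1.353 at 40 and 1.819 at 50, and its Trep in that strain was read from a fit that cannot fall.

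Peak 2, in SAP4, which encodes an associate of the phosphatase Sit4, had a Trep of 54.1 minutes in D, 39.8 in C, 44.1 in B and 31.5 in A. The value of C stands apart from the bins on both sides, which had 43.7 and 43.9 minutes, so C minus A at this peak, 8.29 minutes, rests on 1 bin. Its delay of 22.59 minutes in D rested on the scale, being 0.33 minutes with common scale factors. The ratio at this peak rose slowly, and in D it was 1.338 at 30 minutes, 1.431 at 50 and 1.599 at 60. Peak 1, in MNT2, a mannosyltransferase gene near the left end, had 41.8 minutes in D, 40.6 in C, 46.4 in B and 35.1 in A. It was the only peak at which D was not the latest strain, and with common scale factors D minus A changed sign there, to -9.39 minutes.

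Peak 18, in YAP1802, a gene for a clathrin assembly protein, also lost its lead in D, and it was picked after its values were seen. Its Trep was 54.9 minutes in D, 34.8 in C, 41.4 in B and 31.9 in A. The value of C stands apart from the bins on both sides of it, which had 40.5 and 40.2 minutes. The ratio at 50 minutes was 1.306 ± 0.106 in D, 1.849 ± 0.137 in C, 1.831 ± 0.060 in B and 1.927 ± 0.079 in A (SD over 5 bins), and D had been at 1.285 at 30 minutes. Its lead over both flanking valleys was -0.71 minutes in D, 16.14 in C, 10.65 in B and 14.44 in A. With common scale factors its delay in D was 14.24 minutes. Peaks called in 1 strain near here lay at 1004 kb in D, 976 kb in C, 976 and 996 kb in B and 991 kb in A, and the one at 996 kb was the more prominent of the 2 in B.

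**Figure D5:**
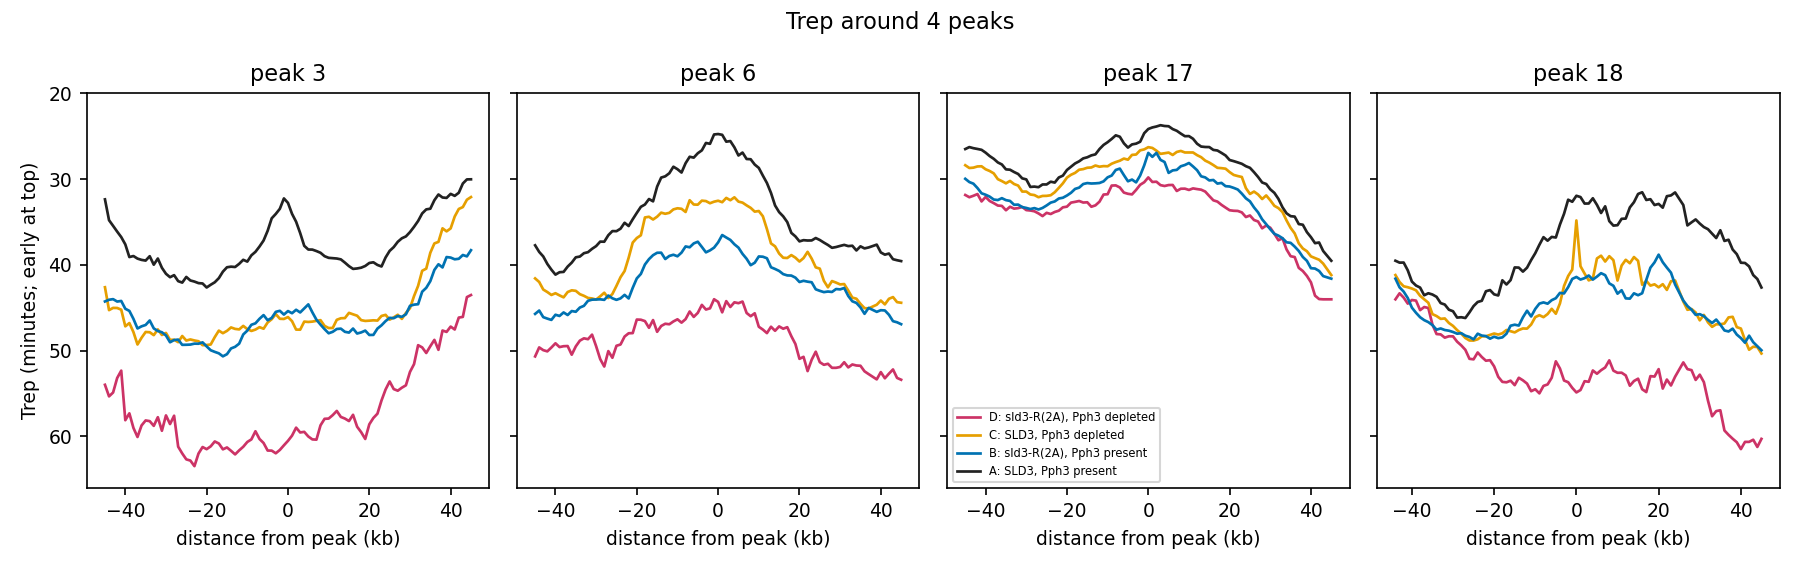
Trep in minutes (early at the top) within 45 kb of peaks 3, 6, 17 and 18 in D, C, B and A. The curve of A rises to a clear top at peak 3. That of D has no top there and runs from 63.5 minutes at the valley on the left to 57.9 at the valley on the right. At peak 17 the curves of all strains come to a top.

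In the left arm, peak 4 had a Trep of 44.03 minutes in D, 33.2 in C, 37.5 in B and 27.3 in A, and peak 5 had 40.2 in D, 31.7 in C, 31.6 in B and 26.7 in A. Their delays in D were 16.69 and 13.46 minutes, larger than those of peaks 7 and 8, which lie nearer to the centromere in YBP2 and RNA15 and were delayed by 10.44 and 11.33 minutes. With common scale factors the delays were 8.35 and 3.63 minutes at peaks 4 and 5 and 6.02 and 6.80 minutes at peaks 7 and 8, so peak 5 was then delayed less than both. Peaks 7 and 8 had a peak of D alone within 5 kb, and peaks 4 and 5 did not. Peak 5 had none of A alone within 5 kb either. Near it, D had a peak at 196 kb, 8 kb away, and A one at 211 kb, 7 kb away. RNA15 encodes a factor of messenger RNA cleavage and polyadenylation.

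In the right arm, peaks 11 to 14 were delayed by 14.11, 16.34, 16.46 and 10.63 minutes. Peak 12 had a Trep of 46.6 minutes in D, 32.3 in C, 38.5 in B and 30.2 in A, and its 2.10 minutes of delay in C against A was small beside the 8.34 minutes in B. Peak 14 had 36.5 minutes in D, 30.1 in C, 32.1 in B and 25.8 in A. Peak 13, in CLD1, a cardiolipin phospholipase gene, borders an unlisted stretch, as do peak 10 in ORM1, a regulator of sphingolipid synthesis, peak 11 in KSS1, a MAP kinase of the filamentation pathway, peak 15 and peak 19. Peak 15 was the least delayed on the deposited scale, with 32.6 minutes in D, 29.8 in C, 28.6 in B and 27.6 in A. At peak 19, in the maltose permease gene MAL11 near the right end, Trep was 41.7 minutes in D, 30.0 in C, 38.4 in B and 31.1 in A. C minus A was -1.11 minutes, the one negative value among the peaks, beside a noise of 0.98 minutes. Its sign rests on that bin, since the bin before it had 32.5 minutes in C and 30.5 in A. With common scale factors D minus A changed sign there, to -2.11 minutes.

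Over the chromosome, peaks stood out less from their valleys in D than in A. The gap between a valley and the mean of its flanking peaks had a median of 5.83 minutes in D, 6.92 in C, 5.86 in B and 9.43 in A over 18 valleys. The lead of a peak over its flanking valleys was lower in D than in A at 15 of the 17 peaks with a valley on each side. Measured by relative timing, with no scale factor, it was lower in D at 14 of 17. With common scale factors the gap was 6.45 minutes in D, 6.92 in C, 7.11 in B and 7.31 in A. The valley between peaks 10 and 11 lay 1 kb from peak 11 at an unlisted stretch and was not resolved.

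The latest valleys differed in how far D fell behind. The valley at VII:90001-91000, between peaks 2 and 3, had a Trep of 63.5 minutes in D, 48.8 in C, 49.2 in B and 41.9 in A, and its delay of 21.53 minutes was the largest of the valleys. The valley at VII:950001-951000 had 51.0 minutes in D, 48.8 in C, 48.4 in B and 45.5 in A, a delay of 5.42 minutes. The valley at VII:1042001-1043000 had 57.4 minutes in D, 53.1 in C, 55.7 in B and 47.2 in A, a delay of 10.14 minutes. The least delayed valley, at VII:860001-861000 before peak 17, had 34.0 minutes in D, 32.1 in C, 33.5 in B and 30.9 in A. At 30 minutes, before the 3 latest valleys (those at 90, 950 and 1042 kb) had replicated, their ratios were 1.237 to 1.276 in D, 1.218 to 1.365 in C, 1.176 to 1.234 in B and 1.169 to 1.214 in A. Late-replicating DNA thus read above 1 on the deposited scale, and a crossing at 1.5 is approximate.

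Bins delayed by more than 20 minutes in D against A were more frequent on VII than over the genome. They numbered 83 of 1027 bins, or 8.08%, against a background of 4.09% of all bins (percentages of bins with a Trep). Without the 60-minute libraries there were 40, and with common scale factors 3. Delays above 10 minutes in D against A covered 577 bins of VII, or 56.2%, against 58.5% of the genome, which is close to the background. For B against A the share was 10.6% on VII, 109 bins, against 5.44% of the genome. For C against A it was 3.8%, 39 bins, against 2.15%, and 9 bins without the 45-minute libraries. For D against B it was 11.1%, 114 bins, against 8.45%, and 63 bins without the 60-minute libraries, while for D against C it was 24.8%, 255 bins, against 21.8%.

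The longest run of bins delayed by more than 20 minutes covered 25 bins from 97001 to 122000. It holds MIG2, SIP2, SPT16, CHC1, POX1, KEX1, ARO8 and MCM6, among others, and its median Trep was 60.7 minutes in D, 47.1 in C, 46.3 in B and 38.2 in A. The next longest, of 17 bins from 53001 to 70000, includes HAP2, ADE57, SEC15 and SAP4. The greatest delays of single 5-kb values at least 30 kb apart were 28.80 minutes at VII:112001-113000 (YGL204C and KEX1), 26.98 minutes at VII:62001-63000 (TAN1) and 22.98 minutes at VII:992001-993000 (RIE1). The smallest were 1.38 minutes at VII:939001-940000 (PET54 and the RNA gene SNR7), 2.75 minutes at VII:858001-859000 (TIM13) and 3.58 minutes at VII:801001-802000 (PTI1). At PET54 Trep was 44.9 minutes in D, 44.01 in C, 46.4 in B and 43.5 in A, so a late position had nearly the same time in all strains.

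Genes with roles in replication and the cell cycle lie at very different places of this profile. SLD3 itself, at VII:295932-297938 and 10 kb from peak 6, had a Trep of 46.8 minutes in D, 33.9 in C, 39.3 in B and 28.9 in A, a delay of 17.95 minutes in D. CDC20, the activator of the anaphase-promoting complex, lay 4 kb from the same peak and was delayed by 18.22 minutes. CDC55, the other gene altered in these strains that lies on VII (145809 to 147389), had 49.8 minutes in D, 41.2 in C, 43.5 in B and 34.1 in A. MCM6, a subunit of the replicative helicase, lay in the longest run above, with 60.1 minutes in D, 46.6 in C, 45.4 in B and 38.1 in A.

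The neighbouring cyclin genes CLB6, which acts in S phase, and CLB1, which acts in mitosis, were delayed by 13.97 and 12.82 minutes in D. RNR4, a subunit of the ribonucleotide reductase that supplies DNA precursors, lay 5 kb from the least delayed valley, and its delay of 3.66 minutes was the smallest of these 9 genes. Its Trep was 33.3 minutes in D, 31.1 in C, 33.1 in B and 29.7 in A. The repair genes RAD54, a recombination helper, and RAD6, a ubiquitin-conjugating enzyme, were delayed by 8.58 and 10.77 minutes.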

How the data were processed

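The labels describe whole-genome sequencing of yeast DNA from 44 S-phase libraries, 11 minutes in each of 4 strains, and 4 G1 libraries that entered only as denominators. The series lists 72 samples, and its 24 chromatin immunoprecipitation samples were not analysed here. Per the submitters' processing notes, Bowtie2 2.2.6, SAMtools 1.7.2 and bedtools 2.26.0 were used with the sacCer3 build. Per the file headers, the authors counted reads per 1-kb bin, divided those of S phase by those of the strain's G1 library, and applied a scale factor to give the deposited ratio. How that factor was set is not given in the sources used here.

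From the deposited ratios of the 11277 bins listed in all 44 tables, Trep was computed over the whole genome with Python 3.11.15, numpy 2.4.6, pandas 2.3.3 and scikit-learn 1.9.0 (isotonic regression), and the steps were tested on simulated data. The 5-kb running mean needed at least 3 bins, and 1027 bins of VII had a Trep. Peaks are maxima over 10 kb to the left and right whose prominence exceeds 3 times the noise, called on ratios divided by the library median and averaged over 24 libraries from 25 to 50 minutes. Gene names and positions come from the RefSeq table of the same assembly (R64), which lists 590 genes on VII. No origin annotation and no genome sequence were used here.

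With 1 library per strain and minute no test between strains exists, and no p-value is given. Trep of all strains is given for windows 1 and 9, the 3 earliest and 3 latest peaks and the 3 latest valleys by mean Trep. It is also given for the peaks and valleys with the extreme D minus A delays and for the longest run above 20 minutes. The other windows have their D minus A delay or a range of it. Single bins with extreme delays and the 9 landmark genes have the delay, Trep or both. Peaks 6 and 18 were added after their values were seen. The chromosome, the lists and the measures were chosen with earlier results of these data known. Alternatives changed the smoothing, the crossing value, the scale factors, the peak rule, the denominator and the time points.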

Additional observations from a re-analysis of the deposited data

Results flagged for a closer look

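At peak 1, the bin VII:14001-15000 in MNT2, Pph3 depletion went with opposite changes of Trep in the 2 Sld3 backgrounds. With sld3-R(2A) it was earlier in D than in B, by -4.59 minutes, and with SLD3 it was later in C than in A, by 5.54 minutes. The difference of these changes was -10.13 minutes and was not tested, since each strain and minute has 1 library. It was the only one of 74 changes compared over the 37 peaks and valleys in which both sides exceeded 2 times the noise with opposite signs. The ratio at 45 minutes was 1.587 ± 0.117 in D, 1.631 ± 0.160 in C, 1.446 ± 0.039 in B and 1.890 ± 0.081 in A (SD over 5 bins). D minus B was 6.14 minutes with each bin read at the midpoint of its own range, and -0.88 minutes without the 45-minute libraries.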

How the results depend on the processing

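No paired analysis was possible because each strain and minute has 1 library and no replicate numbers. With another smoothing, crossing, scale, denominator or peak rule, 342 values were recomputed. Of these, 229 moved by less than their spread (counts: by less than 1.5 times), 105 moved more and 8 changed sign. The spread was the standard deviation over windows, valleys or chromosomes, and for single peaks and valleys the noise. Such a standard deviation is variation along the genome and no error of the value, so large moves can stay within it. The arm difference did so, from 4.65 to 2.21 minutes with common scale factors. With a minute left out, 789 of 825 stayed within these limits, 34 moved and 2 changed sign. Many of these could hardly move, since Trep depends little on minutes away from its crossing.

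Common scale factors moved most. The median delay on VII was then 4.12 minutes for D minus A, 2.36 for B minus A, 2.04 for C minus A, 1.84 for D minus B and 2.22 for D minus C, so each change no longer had the larger delay beside the other, and window 1 was at 3.02. Bins above 10 minutes numbered 108 for D minus A, 0 for B minus A, 0 for C minus A, 29 for D minus B and 17 for D minus C, and 3 were above 20. D minus A changed sign at peak 1 (-9.39 minutes), peak 19 (-2.11) and the valleys at 547 kb (-0.31) and 738 kb (-0.84). Over 19 peaks the delays on the 2 scales had a rank correlation of 0.639.

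Reading bins at the midpoint of their range gave 47 bins above 10 minutes for B minus A and 20 for C minus A, a D minus B of 6.14 minutes at peak 1, and a VII median minus that of other chromosomes of 0.04 minutes for B minus A and 0.00 for C minus A. Without a running mean that last value was 0.03 minutes and 72 bins exceeded 10 minutes for C minus A. The standard deviation of relative timing was 4.18 minutes in D and 3.27 in A with a 5-kb mean, and 5.30 in D and 5.45 in A over the 15-minute library. The stricter prominence left 9 peaks in D.

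Leaving out each minute, the VII median minus the others ran from -0.33 to 0.01 minutes for B minus A and from -0.16 to 0.15 for C minus A. Counts ran from 9 to 53 bins above 10 minutes for C minus A, from 63 to 124 for D minus B, and from 40 to 88 above 20 minutes for D minus A. The causes were not tested. The planned measures at annotated origins were not run, as no such annotation was used. Unknown depth, the approximate scale and single libraries limit all values.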
